A study of Drosophila melanogaster with 21 samples.

Results

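The expression of 7 transcription factor genes, of families tied to neuronal activity and its signaling pathways, was followed in fly heads. The heads came from flies with pan-neuronal knockdown of homologs of genes in the human 3q29 region and from control flies. The 7 genes were Hr38, sr (stripe), kay (kayak), Jra (Jun-related antigen), CrebB, CrebA and Atf3. They were selected by gene identifier from the 17559 genes counted, and all 7 of 7 passed the filter on low counts that left 10558 genes for testing.

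When a neuron fires, calcium and cAMP activate protein kinases, including those of the Ras-ERK pathway, which act on transcription factors already present in the cell and switch on immediate-early genes, many of which encode further transcription factors. Hr38, the fly member of the NR4A family of nuclear receptors, and sr, a zinc-finger factor of the EGR family, are immediate-early genes that are used as reporters of recent neuronal activity in flies. The remaining genes encode leucine zipper (bZIP) factors: kay and Jra are the fly Fos and Jun, which pair as AP-1, Atf3 can pair with Jra, CrebB is the fly CREB that acts in long-term memory, and CrebA drives genes of the secretory pathway.

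Messenger RNA was sequenced from whole heads of female flies in 7 groups of 3 biological replicates, giving 21 libraries. All flies carried Elav-GAL4, which drives expression in neurons, so that the RNA interference hairpin was made in neurons while RNA was taken from every cell type of the head. Flies with knockdown of dlg1 or Fsn carried 1 copy of a hairpin line of the GD collection of the Vienna Drosophila Resource Center and were compared with Elav-GAL4 flies crossed to the GD background strain (Control GD). Flies with knockdown of Cbp20 carried 1 copy of a KK collection line and were compared with Elav-GAL4 flies crossed to the KK background strain (Control KK). The pairwise groups Cbp20/dlg1 and Cbp20/Fsn carried the KK line for Cbp20 together with the GD line for the other gene and were compared with Control KK, although no control group carried both backgrounds. Each gene was knocked down with 1 line, and dlg1, Fsn and Cbp20 encode a synaptic scaffold protein, an F-box protein of a ubiquitin ligase and a protein that binds the cap of new transcripts in the nucleus. Flies were kept at 25 °C and frozen in groups of 40 to 50. The age of the flies at collection and the hour of the day at which they were frozen were not given in the sources used here.

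The libraries held between 17712938 and 28759171 reads assigned to genes. Read counts of Cbp20 fell in Cbp20 flies (log2 fold change -1.45) and those of Fsn in Fsn flies (log2 fold change -0.56), while dlg1 stood at 354 CPM in dlg1 flies and 402 CPM in Control GD, a difference that did not pass the test (FDR = 0.32). Counts of dlg1 were lower in Cbp20/dlg1 flies than in Control KK (log2 fold change -0.35, FDR = 0.024). They were also lower in Fsn flies than in Control GD (-0.31, FDR = 0.021). By qPCR, the study reported partial knockdown of each homolog it tested. CPM are counts scaled to a common library size of 1e+06 reads after normalization. Of the alignments tallied by the authors, between 14.1% and 59.1% were not unique, with the highest shares in dlg1 replicate 1 (59.1%) and dlg1 replicate 3 (38.5%). The 7 antennal markers summed to between 11.3 and 13.7 CPM in Control KK, where Os-C was at 0 in every library, against 45.8 to 109 CPM in Control GD. The 13 antimicrobial peptide genes summed to between 423 and 1462 CPM in Control GD and dlg1 flies and to between 11.99 and 83.8 CPM in the other groups, apart from 1 library of Cbp20/Fsn flies at 599 CPM. The 10 neuron markers, elav and nSyb among them, were detected in every group.

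The 7 genes lie on 5 chromosome arms. Coordinates here are those of BDGP6.54, a newer release of the annotation than the counts were made with. Hr38 (FBgn0014859) spans 2L:20683462-20714588 on the minus strand, and sr (FBgn0003499) spans 3R:18090803-18135583 on the plus strand. On the plus strand lie kay (FBgn0001297, 3R:29765995-29794113), Jra (FBgn0001291, 2R:10096480-10098556), CrebB (FBgn0265784, X:18366357-18377864) and CrebA (FBgn0004396, 3L:15535395-15553214), and Atf3 (FBgn0028550, X:1242740-1275284) lies on the minus strand. Each value is for a whole gene, with coding exons and UTRs together. Exons of Hr38 overlap those of CG2617 on the opposite strand over 168 bp, those of CrebB overlap por over 344 bp, and those of Jra overlap RpLP0-like over 39 bp. The libraries were stranded, but the strand setting of the counting was not given in the sources used here, so reads of these stretches may have been assigned to either gene or to neither.

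All 7 genes were well covered, with between 566 and 5704 reads per gene in every library. Per kilobase of exon, Jra had the highest mean level over the 21 libraries (30.3 CPM per kb), followed by kay (24.7) and CrebB (18.6). The lowest mean levels per kilobase were those of sr (5.31) and Hr38 (5.996), with CrebA at 8.90 and Atf3 at 10.6. The 2 genes with the lowest levels were also those that varied most between libraries: the highest library was 2.88 times the lowest for Hr38 and 2.82 times for sr, against 1.23 times for kay, 1.39 times for CrebB, 1.40 times for Jra, 1.57 times for Atf3 and 1.83 times for CrebA. For 5 of the 7 genes (Hr38, sr, CrebB, CrebA and Atf3) the lowest of all 21 libraries was Fsn replicate 1, which was also the library with the most counts.

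**Figure D1:**
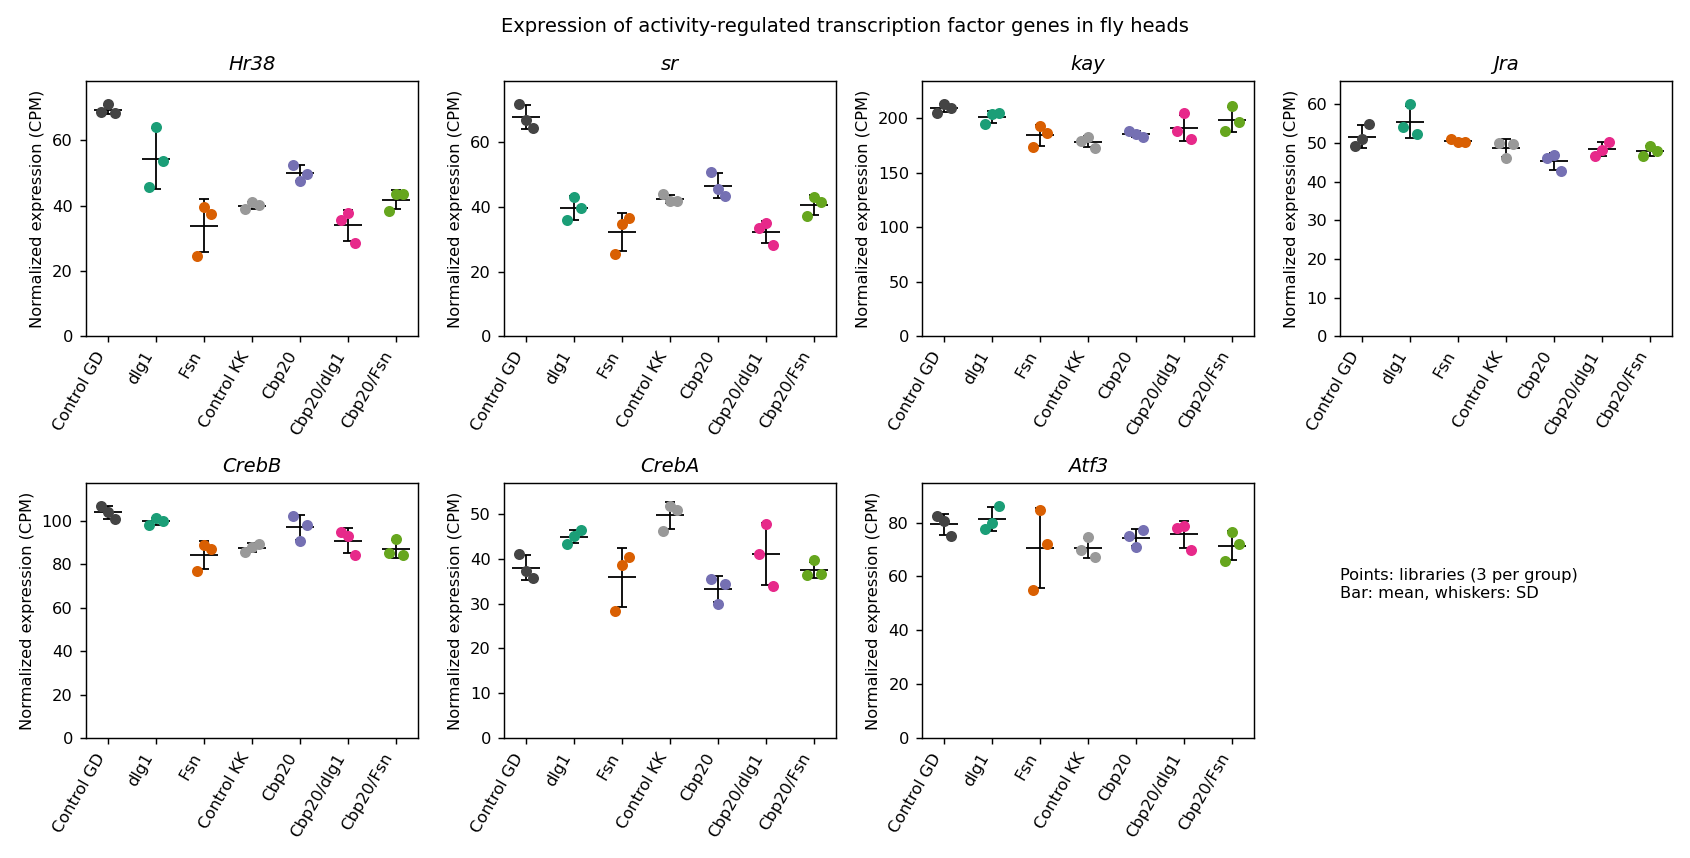
Normalized expression (CPM, y axis, from 0) of the 7 genes in each of the 21 libraries, with the 7 groups on the x axis. Points are libraries, and bars with whiskers are the mean and SD of 3 libraries. Hr38 and sr are highest in Control GD, at 68.5 to 71.0 and 64.4 to 71.8 CPM, above every library of the other groups, while kay, Jra and Atf3 differ little between groups.

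Hr38 and sr had their highest levels in Control GD and their lowest mean levels in Fsn and Cbp20/dlg1 flies, which overlapped. Hr38 was at 68.7, 71.0 and 68.5 CPM in Control GD and at 24.7, 39.5 and 37.5 CPM in the 3 Fsn libraries. For sr the values were 71.8, 66.9 and 64.4 CPM in Control GD and 25.5, 34.7 and 36.5 CPM in Fsn flies. The groups did not overlap for either gene, and Fsn replicate 1 was the lowest library for both. In order of mean Hr38, dlg1 flies followed Control GD and overlapped with Cbp20 flies, followed by Cbp20/Fsn flies and Control KK, which overlapped with each other.

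In Fsn flies compared with Control GD, 4 of the 7 genes fell and none rose. Over all genes tested, 38.2% passed the FDR threshold of 0.05 in this comparison, and 17.9% passed it with lower expression. Hr38 fell to 48.6% of Control GD (log2 fold change -1.04 ± 0.14 SE, FDR = 3.19e-05 in the quasi-likelihood test of edgeR, adjusted by Benjamini-Hochberg). The decrease of sr was of like size, to 47.4% of Control GD (log2 fold change -1.08 ± 0.11, FDR = 2.40e-06). These 2 genes were also the only ones of the 7 past the log2 fold change threshold of 1 used in the study, which 2.41% of all genes passed. CrebB fell by 0.30 on the log2 scale (FDR = 0.0015) and kay by 0.18 (FDR = 0.016). Without Fsn replicate 1, Hr38 and sr were lower by a log2 fold change of -0.86 (FDR = 8.56e-05) and -0.94 (FDR = 4.89e-06), while kay no longer passed (FDR = 0.063). The study itself singled out immediate-early genes in Fsn flies from these libraries, so their direction in this comparison is not independent evidence.

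Markers of cell types moved along with these genes in Fsn flies. Of the 10 neuron markers, 8 fell and none rose, with a median log2 fold change of -0.33 against 0.03 over all genes, and their summed level ranged from 3924 to 5510 CPM in Fsn flies and from 6097 to 6516 CPM in Control GD. The largest decreases among them were those of Syx1A (log2 fold change -1.30) and brp (-0.62), which encode a syntaxin and an active zone protein. Of the 8 fat body markers, 5 rose, including Lsp2 (log2 fold change 1.89) and the yolk protein genes Yp1, Yp2 and Yp3 (1.09 each), and their summed level was 51197 to 69401 CPM against 26510 to 32771 CPM in Control GD. All 13 of 13 antimicrobial peptide genes, 6 of 7 antennal markers and 4 of 6 muscle markers fell, among the muscle markers bt (-0.49) and Mhc (-0.40). Of 8 clock genes only tim passed (0.91, FDR = 2.76e-05). In bulk RNA, fewer cells of a type and less RNA per cell cannot be told apart, and the part of these shifts in the levels of Hr38 and sr was not tested. Since sr also marks tendon cells, the tendon genes Tsp, Lrt and slow were examined. None of the 3 passed the test in Fsn flies (1 at an unadjusted p under 0.05), and their summed level was 251 to 264 CPM against 235 to 238 CPM in Control GD.

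**Figure D2:**
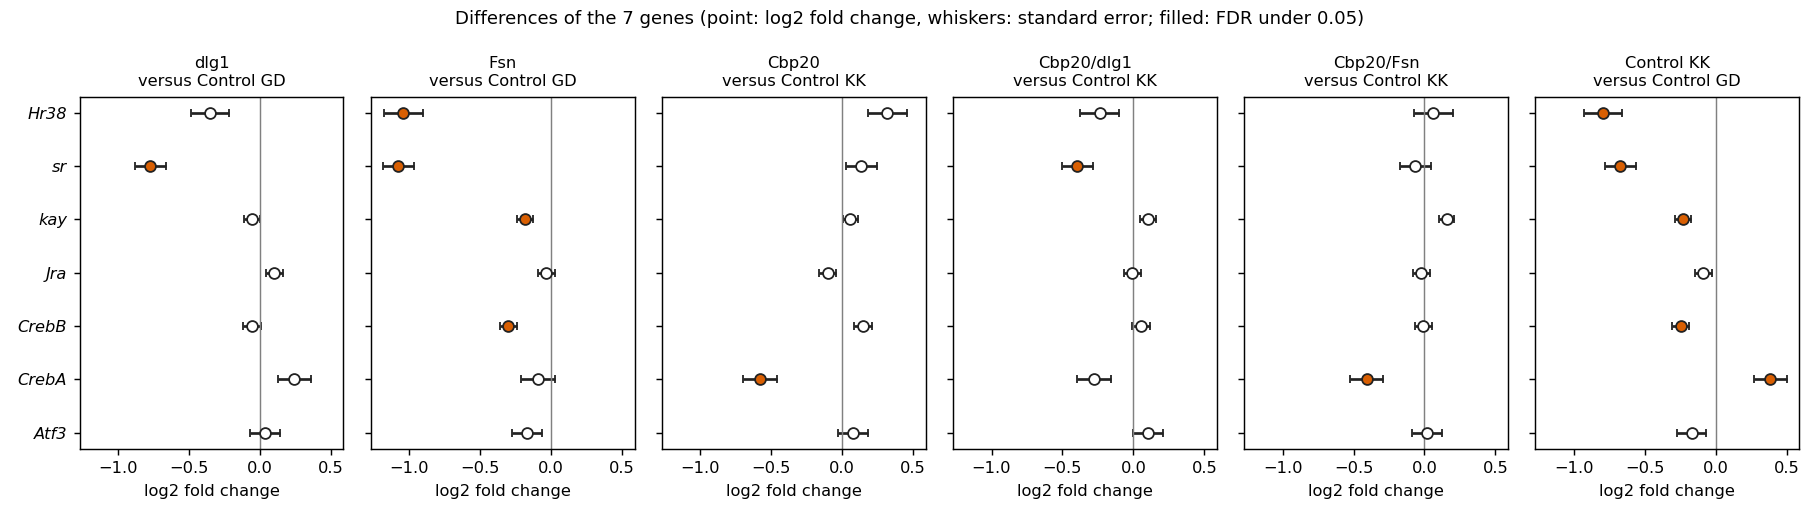
Log2 fold changes (x axis) of the 7 genes (y axis) in 6 comparisons, 1 panel each. Points are estimates, whiskers are standard errors, and filled points passed an FDR of 0.05. Hr38 and sr lie near -1 in Fsn flies, sr alone lies below 0 as a filled point in dlg1 and Cbp20/dlg1 flies, and CrebA is filled and below 0 in Cbp20 and Cbp20/Fsn flies.

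In dlg1 flies, sr was lower than in Control GD while Hr38 did not pass the test. The sr level was 35.9, 43.2 and 39.7 CPM in the 3 dlg1 libraries, below all 3 Control GD libraries. Expression of sr fell to 58.5% of Control GD (log2 fold change -0.77 ± 0.11, FDR = 6.78e-05). Hr38 stood at 45.7, 64.0 and 53.5 CPM in dlg1 flies, also without overlap with Control GD, but with a wider spread (log2 fold change -0.35 ± 0.13, FDR = 0.12). Thus 1 of the 7 genes passed in this comparison, where 9.26% of all genes did. The other 5 genes had log2 fold changes between -0.06 and 0.24. When dlg1 and Control GD libraries alone entered the fit, Hr38 (FDR = 0.048) and CrebA (log2 fold change 0.24, FDR = 0.026) passed as well. Without dlg1 replicate 1, the library with the largest share of reads not uniquely aligned, the log2 fold change was -0.71 for sr (FDR = 0.00080) and -0.24 for Hr38 (FDR = 0.42).

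The neuron markers shifted less in dlg1 flies. Of 10, only ple passed, with higher expression, and the median log2 fold change was 0.00. Markers of some other cell types were lower: 5 of 6 hemocyte markers, among them Hml (log2 fold change -1.28), and 3 of 8 glia markers, among them the astrocyte gene alrm (-1.19) and the GABA transporter gene Gat (-1.14). Antennal markers were lower as well, among them Os-C (-2.79, FDR = 0.036) and Obp83a (-2.43, FDR = 0.028), and none was higher. Of the fat body markers none fell, and Cyp4g1 rose (4.16, FDR = 0.015). Of the muscle markers only Mlc2 fell (-0.30), and of the photoreceptor markers only Rh5 (-0.25). Over all genes, 9.26% passed in dlg1 flies in either direction. Of 3 tendon genes, none passed (1 at an unadjusted p under 0.05). Clock genes, whose levels vary with the hour of the day, also differed, with vri (log2 fold change -0.78), per (-0.66) and tim (-0.39) lower and Clk (0.51) higher. The part of these shifts in the level of sr was not tested.

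The ratio of Hr38 CPM to sr CPM was 1.27, 1.48 and 1.35 in the 3 dlg1 libraries and ranged from 0.884 to 1.14, with a median of 1.03, in the other 18 libraries. The dlg1 libraries thus did not overlap with any other library in this ratio. Compared with the ratio in Control GD (1.03 ± 0.06 SD, n = 3), that in dlg1 flies (1.37 ± 0.11 SD, n = 3) had p = 0.1 in a two-sided exact permutation test, the smallest p that 3 against 3 libraries allow. The same two-sided exact permutation p = 0.1 was obtained for Cbp20, Cbp20/dlg1 and Cbp20/Fsn flies against Control KK, where the ratio was higher by 0.13, 0.11 and 0.088, compared with 0.34 in dlg1 flies. With 3 against 3 libraries this test cannot reach a p under 0.05, and dlg1 flies were not tested against the other groups. In Cbp20/dlg1 flies the ratio was 1.01 to 1.08, within the range of the other groups. The ratio was looked at after the levels of both genes had been seen.

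**Figure D3:**
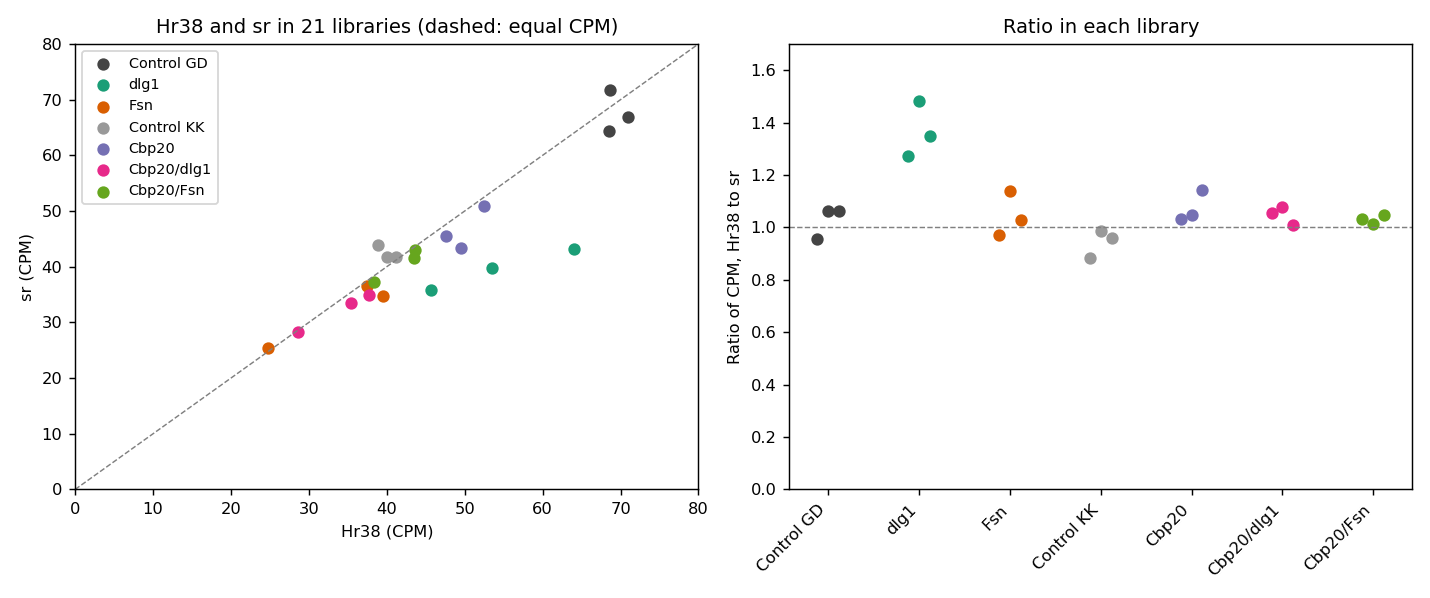
Left, sr CPM (y axis) against Hr38 CPM (x axis) in 21 libraries, colored by group, with a dashed line where both are equal. Right, the ratio of Hr38 CPM to sr CPM in each library by group. Points of 6 groups follow the dashed line, with ratios from 0.884 to 1.14, while the 3 dlg1 libraries lie below it at ratios from 1.27 to 1.48.

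Hr38 and sr also differed between the 2 control groups. Hr38 stood at 38.8, 41.2 and 40.0 CPM in Control KK and sr at 43.9, 41.8 and 41.7 CPM. Every one of these values was below every Control GD library. Compared with Control GD, Control KK had lower Hr38 (log2 fold change -0.79 ± 0.14, FDR = 0.00029), sr (-0.67 ± 0.11, FDR = 0.00015), CrebB (-0.25 ± 0.06, FDR = 0.0071) and kay (-0.23 ± 0.06, FDR = 0.0053) and higher CrebA (0.39 ± 0.12, FDR = 0.024). The difference in CrebA did not pass without replicate 2 or 3 of either control (FDR between 0.072 and 0.086). These 5 of 7 genes compare with 20.9% of all genes tested. Strain background, the hour of collection and other features of the 2 control groups cannot be told apart. Of 10 neuron markers only Gad1 passed between the controls (log2 fold change -0.24), while 12 of 13 antimicrobial peptide genes and 7 of 7 antennal markers were lower in Control KK. Among 8 clock genes, 4 were higher, including tim (log2 fold change 0.78) and cwo (0.76), and 2 were lower. The 10 heat shock genes had a summed level of 400 to 442 CPM in Control GD, 595 to 635 CPM in Control KK and 865 to 1227 CPM over the 5 knockdown groups. One of them, Hsp70Bb, had a mean of 0.81 CPM in Control GD and 0.59 CPM in Control KK. Its means in the knockdown groups ran from 83.7 CPM in Fsn flies to 276 CPM in Cbp20/dlg1 flies. Most of the sum was Hsp83, with means of 375 CPM in Control GD, 575 CPM in Control KK and 831 CPM in Fsn flies. Of the other heat shock genes tested, only Hsp68 in dlg1 flies passed in a knockdown group against its matched control (log2 fold change 0.80). In Cbp20 flies the sum was 979 to 1055 CPM, and Hr38 was above every Control KK library and below every Control GD library. The part of these shifts in the levels of Hr38 and sr was not tested.

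The comparisons of dlg1, Fsn and Control KK flies share the 3 Control GD libraries, in which Hr38 and sr were high, and their values are therefore not independent of each other. Against Control KK in place of Control GD, sr in Fsn flies was still lower (log2 fold change -0.41, FDR = 0.012), while Hr38 was not past the threshold (-0.25, FDR = 0.20). Against Control KK, dlg1 flies showed higher Hr38 (log2 fold change 0.44, FDR = 0.024) together with higher kay (0.17, FDR = 0.028), Jra (0.19, FDR = 0.026) and CrebB (0.19, FDR = 0.032), while sr had a log2 fold change of -0.10 (FDR = 0.56). The direction of Hr38, kay and CrebB in dlg1 flies thus depended on the control group.

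In Cbp20 flies, neither Hr38 nor sr passed the test against Control KK. Hr38 stood at 52.5, 47.6 and 49.5 CPM, each above every Control KK library, and sr at 50.8, 45.5 and 43.4 CPM, overlapping with them. The log2 fold changes were 0.32 ± 0.14 for Hr38 (FDR = 0.11) and 0.13 ± 0.11 for sr (FDR = 0.41), and Hr38 passed when Cbp20 and Control KK libraries alone were fitted (0.31, FDR = 0.0014). Of the 7 genes, only CrebA passed in Cbp20 flies, where 21.6% of all genes did. Relative to Control GD, Hr38 (log2 fold change -0.48, FDR = 0.015) and sr (-0.54, FDR = 0.0011) were lower in Cbp20 flies. Of the 10 neuron markers, 5 were higher in Cbp20 flies than in Control KK, with a median log2 fold change of 0.30, and their part in the level of Hr38 was not tested.

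In Cbp20/dlg1 flies, sr was lower than in Control KK and both genes were lower than in Cbp20 flies. The levels of Hr38 were 35.5, 37.7 and 28.6 CPM and those of sr 33.6, 34.9 and 28.3 CPM, each below every library of Control KK and of Cbp20 flies. Against Control KK, sr fell to 76.0% (log2 fold change -0.40 ± 0.11, FDR = 0.022), as 1 of 7 genes against 13.1% of all genes, and Hr38 did not pass (-0.24 ± 0.14, FDR = 0.29). Without Control KK replicate 1 or 2, or without Cbp20/dlg1 replicate 3, sr did not pass either, with an FDR between 0.053 and 0.12. Against Cbp20 flies, which share the KK line, Hr38 fell to 68.1% (log2 fold change -0.55 ± 0.14, FDR = 0.0049) and sr to 69.3% (-0.53 ± 0.11, FDR = 0.0012). These 2 of 7 genes compare with 32.2% of all genes. In the same comparison 5 of 10 neuron markers fell, with a median log2 fold change of -0.27, whereas against Control KK none of the 10 passed (0 at an unadjusted p under 0.05). The tendon gene slow fell as well (-0.56, FDR = 0.00053), 1 of 3 tendon genes, and among clock genes tim (-0.81) and vri (-0.72) fell while Clk (0.68) rose. Of the 8 fat body markers 5 rose, including Yp1 (1.12). The part of these markers in the differences of Hr38 and sr from Cbp20 flies was not tested.

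In Cbp20/Fsn flies, Hr38 and sr were near the level of Control KK. Hr38 stood at 38.4, 43.6 and 43.5 CPM and sr at 37.2, 43.0 and 41.6 CPM, and both overlapped with Control KK. The log2 fold changes were 0.06 ± 0.14 for Hr38 (FDR = 0.80) and -0.07 ± 0.11 for sr (FDR = 0.73). Only CrebA passed among the 7 genes, where 17.1% of all genes did. Against Cbp20 flies none of the 7 genes passed in edgeR, with 1 (CrebB) at an unadjusted p under 0.05 and 1 (CrebB) past the threshold in DESeq2, and 29.2% of all genes passed in edgeR. Hr38 had a log2 fold change of -0.25 ± 0.14 (FDR = 0.17) and sr of -0.20 ± 0.11 (FDR = 0.17) in that comparison.

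The difference between Cbp20/Fsn and Cbp20 flies was then set against that between Fsn flies and Control GD. This is the effect of the pair less the sum of the log2 effects of the individual knockdowns, in which Control KK cancels. It left 0.79 ± 0.19 for Hr38 (FDR = 0.017), 0.88 ± 0.15 for sr (FDR = 0.0015) and 0.28 ± 0.08 for kay (FDR = 0.036). Thus 3 of 7 genes were higher in Cbp20/Fsn flies than the sum, against 6.72% of all genes different from it and 3.9% higher. The only control that enters it is Control GD, where all 3 genes had their highest group means, and no matched control of the pair does. For Hr38, the log2 fold change of -0.25 in Cbp20/Fsn against Cbp20 flies was the same as that of Fsn flies against Control KK. The difference from the sum was not tested with Control KK in place of Control GD. Marker genes also differed from the sum: 11 of 13 antimicrobial peptide genes and 3 of 7 antennal markers were higher, as were Clk (log2 difference 0.59) and the hemocyte marker NimC1 (0.76), while tim (-1.33) and the tendon gene slow (-0.94) were lower. The part of these in the values of Hr38, sr and kay was not tested, and none of the 10 neuron markers passed (0 at an unadjusted p under 0.05). Read counts of Fsn were lower to a like extent in Cbp20/Fsn flies (log2 fold change -0.53 against Control KK) and in Fsn flies (-0.56 against Control GD). For kay the result did not pass in 9 of the 12 fits that left out 1 library each (FDR from 0.055 to 0.093), which were all but those without Fsn replicate 2, Cbp20 replicate 1 or Cbp20/Fsn replicate 1, whereas Hr38 and sr passed in all 12. With the first sequencing batch only, sr passed (FDR = 0.0012), and Hr38 (FDR = 0.079) and kay (FDR = 0.12) did not. For Cbp20/dlg1 flies none of the 7 genes differed from the sum in edgeR (0 at an unadjusted p under 0.05, and 0 in DESeq2), where 18.1% of all genes did. There the values were -0.20 ± 0.19 for Hr38 and 0.25 ± 0.15 for sr.

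Among the AP-1 genes, kay varied over a narrow range and Jra passed in none of the 10 comparisons. The levels of kay were 205, 213 and 210 CPM in Control GD, 173, 193 and 186 CPM in Fsn flies and 179, 183 and 173 CPM in Control KK. Control GD was thus above both other groups without overlap. Levels in dlg1 flies (194, 203 and 205 CPM), Cbp20 flies (188, 185 and 183 CPM), Cbp20/dlg1 flies (188, 204 and 181 CPM) and Cbp20/Fsn flies (188, 211 and 196 CPM) are not separated from these groups as a set: Cbp20/Fsn replicate 2 lay within the range of Control GD, and all Cbp20 libraries lay within that of Fsn flies. Compared with Control KK, Cbp20/Fsn flies had a log2 fold change of 0.16 ± 0.06 for kay (FDR = 0.062), which passed in DESeq2 (FDR = 0.033). Jra ranged from 42.8 to 60.03 CPM over all libraries, and the means of the 7 groups ran from 45.3 ± 2.20 CPM (SD, n = 3) in Cbp20 flies to 55.5 ± 4.06 CPM in dlg1 flies. Its log2 fold changes against the matched controls were between -0.10 and 0.10.

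Atf3, whose product can pair with Jra, also passed in none of the 10. It ranged from 55.1 CPM in Fsn replicate 1 to 86.2 CPM in dlg1 replicate 3. In Fsn flies the 3 libraries were spread over 55.1, 84.6 and 72.1 CPM, the widest spread of any group for this gene, and overlapped with Control GD at 82.5, 80.6 and 75.0 CPM. The log2 fold change was -0.17 ± 0.11 (FDR = 0.20). Without Fsn replicate 2, the highest of the 3, it was -0.32 (FDR = 0.011).

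CrebB followed the order of Hr38 at the top and the bottom of the groups, over a smaller range. Its levels were 107, 104 and 101 CPM in Control GD, 77.1, 89.2 and 87.4 CPM in Fsn flies and 85.5, 88.1 and 89.5 CPM in Control KK. Fsn flies and Control KK did not overlap with Control GD. In dlg1 flies CrebB stood at 98.3, 101 and 100 CPM, overlapping with Control GD (log2 fold change -0.06 ± 0.06, FDR = 0.71). In Cbp20 flies it stood at 102, 90.9 and 98.2 CPM, above every Control KK library (log2 fold change 0.15 ± 0.06, FDR = 0.099). Cbp20/dlg1 flies (95.2, 93.3 and 84.3 CPM) and Cbp20/Fsn flies (85.4, 92.0 and 84.4 CPM) overlapped with Control KK, with log2 fold changes of 0.05 and -0.01.

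CrebA showed another pattern, with its highest level in Control KK and its lowest mean in Cbp20 flies. It stood at 46.3, 51.8 and 51.0 CPM in Control KK and at 35.5, 30.0 and 34.3 CPM in Cbp20 flies, with no overlap. Expression in Cbp20 flies fell to 66.9% of Control KK (log2 fold change -0.58 ± 0.12, FDR = 0.0011). In Cbp20/Fsn flies CrebA was at 36.4, 39.6 and 36.6 CPM, again below every Control KK library, and fell to 75.5% (log2 fold change -0.41 ± 0.12, FDR = 0.023). In 4 of the 6 fits that left out 1 library (Control KK replicate 2 or 3, or Cbp20/Fsn replicate 1 or 3) the decrease in Cbp20/Fsn flies did not pass, with an FDR between 0.068 and 0.082. Cbp20/dlg1 flies were spread over 41.2, 47.9 and 34.01 CPM and did not pass (log2 fold change -0.28 ± 0.12, FDR = 0.13), except without Cbp20/dlg1 replicate 2 (-0.40, FDR = 0.036). In the GD groups CrebA stood at 41.2, 37.3 and 35.7 CPM in Control GD, 43.4, 45.1 and 46.3 CPM in dlg1 flies and 28.4, 38.7 and 40.4 CPM in Fsn flies. The dlg1 libraries were all above Control GD, but the difference did not pass (log2 fold change 0.24 ± 0.12, FDR = 0.26). Against Control GD, CrebA in Cbp20 flies did not pass (log2 fold change -0.19, FDR = 0.28).

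Genes of the secretory pathway, which CrebA is known to drive in fly secretory tissues, were lower in Cbp20 flies together with CrebA. Of the 19 tested, 14 fell and none rose, with a median log2 fold change of -0.25 against 0.01 over all genes. Among them were Sec61alpha (log2 fold change -0.48, FDR = 2.36e-06) and Sec61beta (-0.36, FDR = 0.0019), subunits of the translocon, and TRAM (-0.40, FDR = 0.0033). In Cbp20/Fsn flies 6 of 19 fell and none rose (median -0.12), and in Cbp20/dlg1 flies 2 fell and none rose (median -0.08). Over all genes, the shares that passed in either direction were 21.6% in Cbp20, 17.1% in Cbp20/Fsn, 13.1% in Cbp20/dlg1 and 38.2% in Fsn flies. The summed level of the 19 genes was 1194 to 1240 CPM in Cbp20 flies and 1425 to 1470 CPM in Control KK. The secretory genes did not follow CrebA in Fsn flies, where 14 of 19 rose and none fell (median 0.24) while CrebA had a log2 fold change of -0.09 ± 0.12 (FDR = 0.56).

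The fat body, a secretory tissue of the head, showed shifts of its markers in the same comparisons. In Cbp20 flies 5 of 8 fat body markers fell, including Yp2 (log2 fold change -1.44), Yp1 (-1.34) and Yp3 (-1.11), and the sum of the 8 ranged from 18829 to 24692 CPM against 45133 to 54379 CPM in Control KK. In Cbp20/Fsn flies 4 of 8 fell, and in Fsn flies 5 rose. In Control KK relative to Control GD, 4 of 8 fat body markers and 7 of 19 secretory genes rose, as did CrebA. Over all genes, 20.9% passed between the controls in either direction. None of the 8 fat body markers was at 0 in all libraries of a group. Their part in the levels of CrebA and of the secretory genes was not tested.

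**Figure D4:**
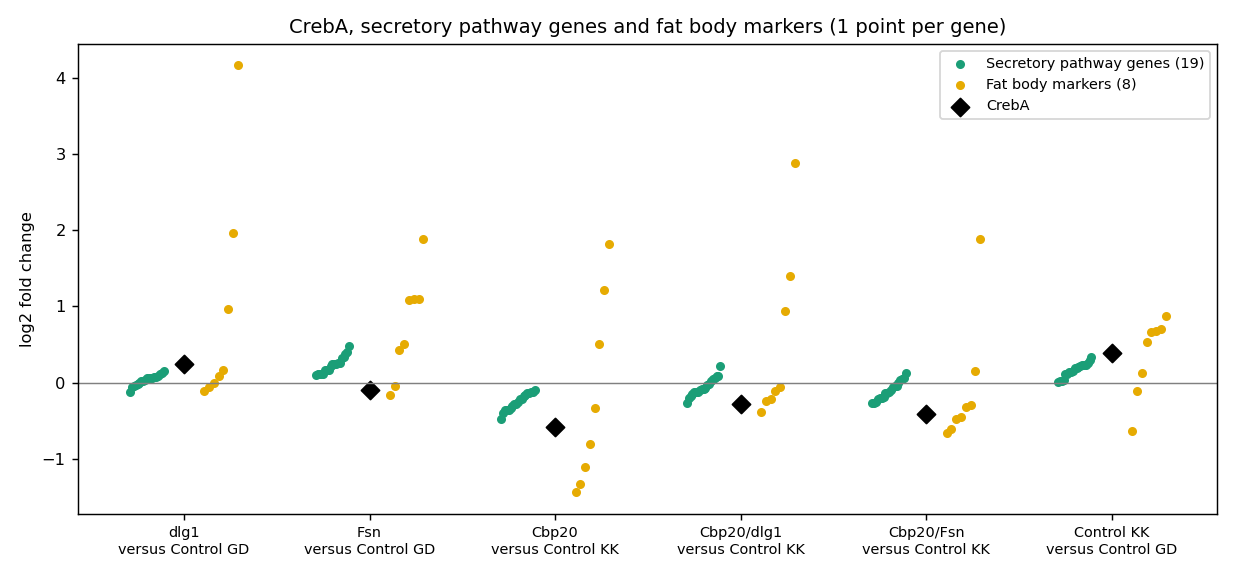
Log2 fold changes (y axis) of CrebA (diamond), 19 secretory pathway genes and 8 fat body markers (points, 1 per gene) in 6 comparisons (x axis). In Cbp20 flies CrebA lies at -0.58 and the secretory genes have a median of -0.25, while in Fsn flies CrebA lies at -0.09 and the secretory genes have a median of 0.24.

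In Fsn flies, other genes known to be induced by neuronal activity in flies had smaller log2 fold changes than Hr38 and sr, which did not hold in every comparison. Of the 7 listed (cbt, CG8910, CG14186, CG17778, CG13868, meng and CG14024), 5 fell and 1 rose in Fsn flies, with a median log2 fold change of -0.31 against 0.03 over all genes. The largest decreases were those of meng (log2 fold change -0.40, FDR = 0.00012), which encodes a protein kinase, CG14186 (-0.38, FDR = 0.00025) and CG8910 (-0.33, FDR = 0.0017), and CG13868 rose (0.25, FDR = 0.0096). In dlg1 flies only cbt (-0.27, FDR = 0.0016) and meng (-0.20, FDR = 0.039) fell. In Control KK relative to Control GD, 4 of 7 fell, led by CG8910 (-0.36) and CG14186 (-0.30), and cbt rose (0.25). In Cbp20 flies CG8910 (0.25) and CG14024 (0.21) rose and CG13868 (-0.52) and cbt (-0.18) fell, with FDR = 1.48e-05 for CG13868, whereas Hr38 and sr did not pass there. In Cbp20/dlg1 flies cbt (-0.29) and meng (-0.27) fell, and in Cbp20/Fsn flies cbt fell (-0.26). None of the 7 differed from the sum of the individual knockdowns in Cbp20/Fsn flies (2 at an unadjusted p under 0.05).

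Among 18 genes of the Ras-ERK pathway and the SRF factors, several fell in Fsn and dlg1 flies. In Fsn flies 8 of 18 fell and 2 rose (median -0.17), and in dlg1 flies 5 fell and none rose (median -0.11). Over all genes, 38.2% passed in Fsn flies, 17.9% with lower expression, and 9.26% passed in dlg1 flies. Mkp3, the phosphatase of ERK, fell in Fsn flies (log2 fold change -0.48, FDR = 6.79e-05) and dlg1 flies (-0.27, FDR = 0.015), and so did sty, a feedback inhibitor of the pathway (-0.47 and -0.35), and aop, a transcriptional repressor that ERK inactivates (-0.40 and -0.28). Each of these 3 genes was also lower in Control KK than in Control GD (Mkp3 -0.38, sty -0.34 and aop -0.26). Between the controls 7 of 18 fell and 1 rose, where 20.9% of all genes passed. The gene of the fly ERK itself, rl, was lower in Control KK (-0.72, FDR = 4.16e-05) and did not pass in Fsn flies (-0.24) or dlg1 flies (-0.21). In dlg1 flies the ERK-regulated factor pnt had the largest decrease (-0.52, FDR = 0.00057). In each of the 3 groups compared with Control KK, 2 of 18 rose and 1 fell, near the share over all genes. That share was 21.6% in Cbp20 flies, 13.1% in Cbp20/dlg1 flies and 17.1% in Cbp20/Fsn flies. The 3 genes were Ras85D and spi upwards and Egfr downwards, with Egfr at -0.56 in Cbp20 flies.

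**Figure D5:**
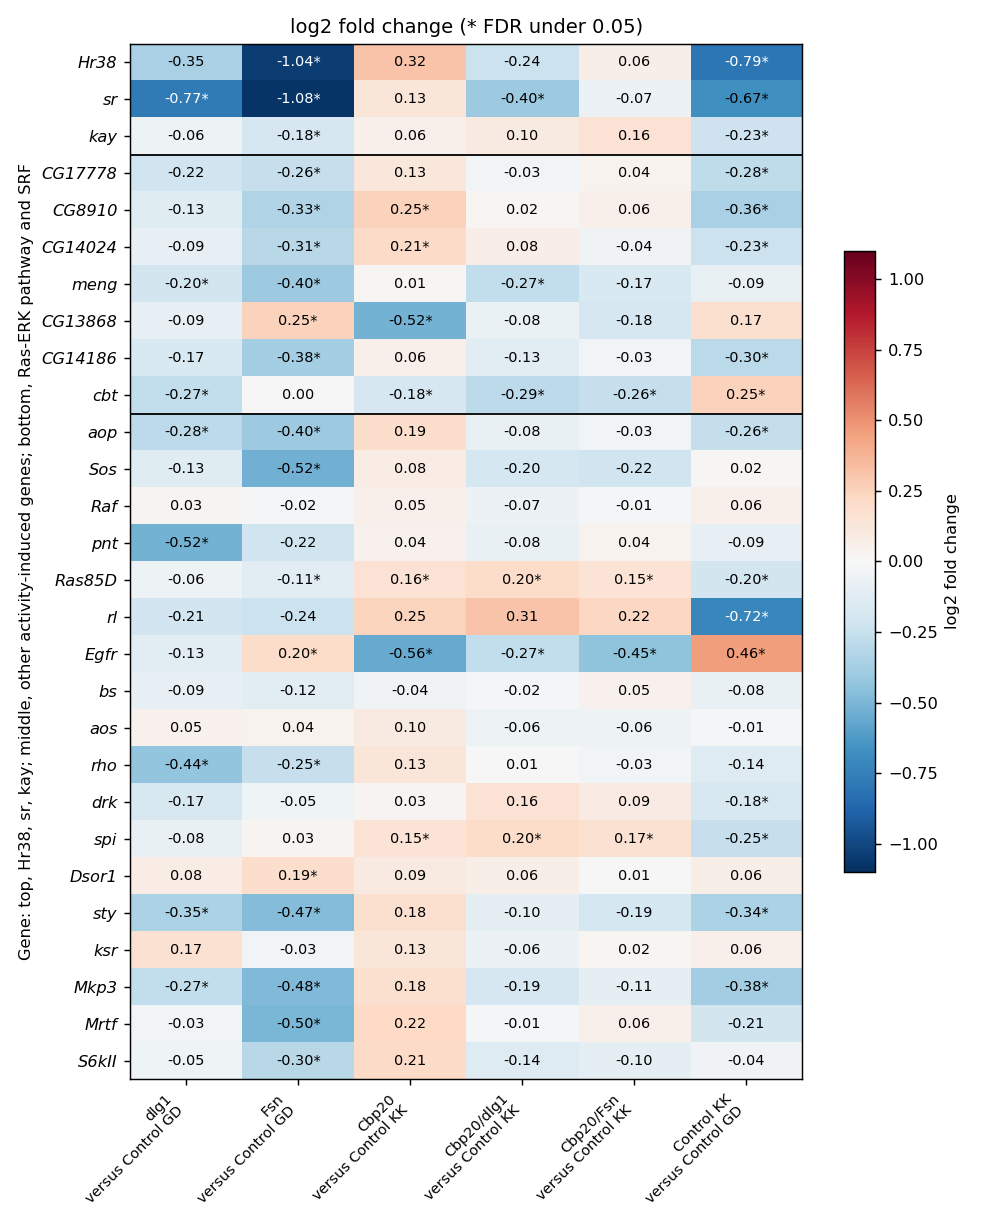
Log2 fold changes, as color and number, of Hr38, sr and kay (top), 7 other activity-induced genes (middle) and 18 genes of the Ras-ERK pathway and SRF (bottom) in 6 comparisons (columns). An asterisk marks an FDR under 0.05. In Fsn flies 5 of the 7 genes in the middle block fell, and Mkp3, sty and aop fell in Fsn and dlg1 flies and in Control KK relative to Control GD.

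Genes of the cAMP and calcium pathway upstream of CrebB fell in Fsn flies, where 17.9% of all genes were lower past the threshold. Of 17 tested, 10 were lower and none higher (median -0.29). They included nej, the fly CBP coactivator of CREB (log2 fold change -0.65, FDR = 0.0025), the cAMP phosphodiesterase gene dnc (-0.45, FDR = 0.0043) and the kinase gene Sik3 (-0.44, FDR = 0.0045). In dlg1 flies only Pka-C3 fell (-0.27, FDR = 0.014). In Cbp20 flies 3 of 17 rose and none fell, among them the protein kinase A regulatory subunit genes Pka-R2 (0.31) and Pka-R1 (0.26). Over all genes, 21.6% passed there in either direction. Of 14 genes of the JNK pathway, which activates AP-1, 7 fell in Fsn flies and none rose (median -0.17), including hiw (-0.55, FDR = 0.0054), whose product works together with Fsn in a ubiquitin ligase, and puc (-0.34, FDR = 0.00024), an AP-1 target that inhibits JNK. Between the controls none of the 14 passed (1 at an unadjusted p under 0.05). As for Hr38 and sr, the part of the lower neuron markers in these decreases was not tested.

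Other nuclear receptor and bZIP genes were counted for comparison with the 7. Of 15 other nuclear receptor genes tested, 6 fell and none rose in Fsn flies (median log2 fold change -0.16), none passed in dlg1 flies in edgeR (0 at an unadjusted p under 0.05), and 2 rose and 1 fell in Control KK relative to Control GD. Of 13 other bZIP factor genes, 5 rose and none fell in Fsn flies (median 0.10), 1 rose and 1 fell in dlg1 flies, and 2 rose and 1 fell between the controls. The shares in Fsn flies are near the 38.2% of all genes that passed there in either direction. Taken by direction, 17.9% of all genes passed with lower expression, against 6 of 15 nuclear receptor genes and none of 13 bZIP genes. Whether these shares differ from that of all genes was not tested.

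Over the 21 libraries, Hr38 and sr were more alike than any other pair of the 7 genes. Pearson's r of their log2 levels was 0.90 (permutation p = 1e-05, the smallest that 100000 permutations can give, adjusted p = 0.000105 over 21 pairs) and Spearman's rho was 0.83 (permutation p = 2e-05, adjusted p = 0.00021). Without the 2 libraries farthest from the median of Hr38, r was 0.85, and after subtracting the mean of each group it was 0.91. A high r within groups was not particular to this pair. Every pair without Jra had r within groups between 0.62 (kay and CrebB) and 0.91, with CrebB and CrebA at 0.89. Pairs with Jra had r within groups from -0.35 to 0.06. The libraries of a group resemble each other, so that the 21 points are not independent and these p-values are too small. Hr38 and CrebB had r = 0.88 (rho = 0.82), and r = 0.77 within groups. CrebA had r = 0.15 with Hr38 and 0.10 with sr over all libraries, but 0.80 and 0.81 within groups, where Fsn replicate 1 was the lowest library for all 3 genes. Jra had the lowest r with sr (0.05) and with Hr38 it was 0.27.

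Among 10557 other genes tested, the 5 whose log2 levels had the highest r with Hr38 over the 21 libraries were FBgn0013984 (r = 0.95), CG14186 (0.93), Ehbp1 (0.92), jp (0.92) and lbk (0.91). The first has no symbol in the tables used here, and CG14186 is 1 of the 7 other activity-induced genes. For sr they were Pka-C3 (0.91), Hr38 (0.90), Mkp3 (0.88), pcs (0.88) and aop (0.88), so that 2 of the 5 belong to the Ras-ERK list and 1 to the cAMP list. For kay they were dl (0.87), sowah, CG42458, cdm and CG7369 (each from 0.85 to 0.86). After subtracting group means, r with sr was 0.91 for Hr38 and between 0.62 and 0.66 for the other 4. Ranked by likeness to Hr38, sr came at rank 12 and CrebB at rank 39 of the 10557 genes, while kay was at rank 986. These values describe likeness over libraries that share group, background and depth.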

How the data were processed

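Raw read counts per gene were deposited by the authors without normalization, in 1 column per sequencing batch. They came from HTSeq 0.6.1 after trimming (Trimmomatic 0.36) and alignment (TopHat2 2.1.1, genome release 6.08). Batches were summed per library (3 batches in 17 libraries and 2 in 4), and HTSeq summary lines were left out. Of all tallied alignments, 4.92% to 11.7% lay outside genes and 1.18% to 1.89% were ambiguous. Symbols were matched for 17253 of 17559 identifiers. Intervals of single counts were not used, as each of the 7 genes had at least 566 reads in every library.

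Differential expression was tested with edgeR 4.0.16 in R 4.3.3 (filterByExpr, TMM, quasi-likelihood test with legacy estimation, 1 coefficient per group, all 21 libraries in 1 fit, Benjamini-Hochberg correction over 10558 genes, threshold FDR 0.05), with 10 contrasts. The stricter log2 fold change threshold of 1 is that of the study. Levels in CPM used TMM factors. Correlations were taken on log2(CPM + 0.5), with 100000 permutations. The ratio of Hr38 to sr was compared by exact permutation tests. In simulated counts for Fsn flies and Control GD (10432 genes), the procedure recovered 44 of 55 genes changed 1.5-fold, 72 of 75 changed 2-fold and 69 of 70 changed 4-fold, with 17 false calls.

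All 7 genes are named in every comparison. Of each gene list, at most 3 genes each way with the largest change past the threshold are named, and for Hr38, sr and kay the 5 most alike genes. Values outside that rule, for aop, sty, rl, Mkp3, puc and Os-C, were chosen after they had been seen, as were those of the ratio of Hr38 to sr. The 7 genes and all lists were chosen with earlier results of these data known. The labels number the replicates of each group without stating a link between equal numbers. P-values measure the spread between these libraries. Alternatives were DESeq2 1.42.0, RLE normalization, edgeR 4 estimation, the likelihood ratio test, other filters, the first batch only, only the groups compared, the other control, a replicate block, other thresholds and each replicate left out in turn. Further calculations used Python 3.11.15 with pandas 2.3.3, numpy 2.4.6, scipy 1.17.1 and matplotlib 3.10.9.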

Additional observations from a re-analysis of the deposited data

Results flagged for a closer look

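The difference of Cbp20/Fsn from Cbp20 flies was set against that of Fsn flies from Control GD in edgeR, and 3 genes passed. Relative to the sum of the individual knockdowns, the log2 value in Cbp20/Fsn flies was higher by 0.79 for Hr38 (FDR = 0.017), by 0.88 for sr (FDR = 0.0015) and by 0.28 for kay (FDR = 0.036). For kay this did not pass in 9 of 12 fits that left out 1 library, and 1 of the 3 genes, sr, passed with the first sequencing batch only or at an FDR of 0.01. Control GD is the only control group in this difference, so that its background and its high levels are not separated from the Fsn effect. Against Control KK, the log2 fold change of Hr38 in Fsn flies was -0.25, the same as in Cbp20/Fsn against Cbp20 flies.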

How the results depend on the processing

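Of 18 differences past the threshold in the 10 comparisons, all 18 passed with the same sign under DESeq2, RLE normalization, edgeR 4 estimation, the likelihood ratio test, no filter, a minimum of 10 counts in every library and the replicate block. With the first sequencing batch only, 14 of 18 passed, and 16 of 18 with only the groups compared. Of 8 that could be set against the other control, 2 passed with the same sign, 5 did not pass and 1 had the other sign. The cause of these changes was not tested. Replicate numbers did not pair the libraries (r of deviations over 63 same-numbered pairs -0.28 to 0.35), and with the block 2 genes passed in Cbp20/Fsn flies against Control KK, kay being the added gene (FDR = 0.042).

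The number of the 7 genes past the threshold became, against the other control, 4 in dlg1 flies, 2 in Fsn flies, 4 in Cbp20 flies and 3 with either pair. With only the groups compared it was 3 for dlg1, 2 for Cbp20, 2 for Cbp20/Fsn flies against Control KK and 1 against Cbp20 flies. DESeq2 gave 2 and 1 for the last pair. With the first batch only it was 0 for Cbp20/dlg1 and 1 for the Cbp20/Fsn difference from the sum. At an FDR of 0.01 it was 0 for both pairs against Control KK and 1 for the difference from the sum. With the log2 fold change threshold of 1 it was 2 for Fsn flies and 0 elsewhere. Leaving out 1 library gave 1 gene in dlg1, 3 to 5 in Fsn and 1 to 2 in Cbp20 flies, 0 to 2 with Cbp20/dlg1 and 0 to 1 with Cbp20/Fsn knockdown, 4 to 5 between controls, 2 to 3 and 0 to 1 when these pairs were set against Cbp20 flies, and 0 and 2 to 3 for the differences from the sums.

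Log2 fold changes of the other sign arose against the other control in dlg1 flies (Hr38 0.44, kay 0.17, CrebB 0.19, CrebA -0.15), Fsn flies (kay 0.048, Jra 0.053), Cbp20 flies (Hr38 -0.48, sr -0.54, kay -0.17, CrebB -0.10, Atf3 -0.094), Cbp20/dlg1 flies (kay -0.13, CrebB -0.19, CrebA 0.11, Atf3 -0.070) and Cbp20/Fsn flies (Hr38 -0.73, kay -0.076, Atf3 -0.15). With the first batch only they were Atf3 -0.0092 in dlg1 flies, Jra 0.032 and CrebA 0.073 in Fsn flies, Jra 0.011 in Cbp20 flies, Jra 0.068 in Cbp20/dlg1 flies, sr 0.088 and Jra 0.054 in Cbp20/Fsn flies, and CrebA -0.015 and Atf3 0.034 for the difference of Cbp20/dlg1 flies from the sum. Without the filter they were CrebB 0.0068 in Cbp20/Fsn flies and Jra 0.010 and Atf3 0.0038 for that difference, and with only the groups compared Jra 0.0036 in Cbp20/dlg1 and CrebB 0.0014 in Cbp20/Fsn flies. Of all these, only kay in Fsn flies had passed against the matched control.

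Leaving out 1 library turned the sign of small changes, none of them past the threshold. They were Atf3 in dlg1 flies (-0.011 to 0.062), Jra (-0.067 to 0.016) and CrebA (-0.18 to 0.043) in Fsn flies, Jra in Cbp20/dlg1 flies (-0.046 to 0.020), and sr (-0.11 to 0.0066), Jra (-0.061 to 0.0091), CrebB (-0.047 to 0.020) and Atf3 (-0.036 to 0.086) in Cbp20/Fsn flies. Against Cbp20 flies they were kay (-0.0078 to 0.082) and Atf3 (-0.0091 to 0.078) in Cbp20/dlg1 flies and Atf3 (-0.11 to 0.0098) in Cbp20/Fsn flies. For the differences from the sums they were Jra (-0.048 to 0.056), CrebB (-0.082 to 0.015), CrebA (-0.061 to 0.18) and Atf3 (-0.043 to 0.044) in Cbp20/dlg1 flies and Atf3 (-0.043 to 0.26) in Cbp20/Fsn flies.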
